A study of Homo sapiens with 2 samples.

Results

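The genes described here are the MYC family members MYC and MYCN, their dimerization partner MAX, and 7 genes of growth and nucleolar function that are widely used as readouts of MYC activity, namely ODC1, NPM1, NCL, FBL, NOP56, NOP58 and DKC1. They were chosen by name, with earlier results of these data known. All 10 were found among the 33538 gene identifiers of the count table. Levels were measured in SH-SY5Y (SY5Y), a human neuroblastoma line of neuroblast-like cells that carries no amplification of MYCN. The cells were untreated, and 1 culture had been split into 2 flasks, SplitA and SplitB. Each flask was tagged with its own hashtag antibody, and both were pooled into 1 droplet-based 3' mRNA library with a matching hashtag library (CITE-seq), in which each transcript is counted once as a unique molecular identifier (UMI). The flasks thus share the culture, the treatment and the library. They differ in the flask in which the cells grew and in the hashtag antibody, and these cannot be told apart. Their spread is the only replicate error that these data hold, and it may be technical.

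The table holds 2879 cells. By their hashtags 1179 belonged to SplitA and 1605 belonged to SplitB, and 95 that the hashtags did not assign to 1 flask were classed as multiplets. Cells of 1 flask with at least 1000 detected genes were used, which left 899 cells of SplitA with a median of 6063 UMIs and 1195 cells of SplitB with a median of 6346 UMIs. The summed depth was 5852780 and 8066440 UMIs. The noradrenergic neuroblastoma markers PHOX2A, HAND2, GATA3, ISL1 and DBH were found at 179.8 to 685 CPM (UMIs of a gene per 1000000 UMIs) in each flask. TH, a further marker of this kind, had only 9 UMIs per flask. The immune markers PTPRC, CD3E and LYZ, the mesenchymal marker PRRX1, the epithelial marker KRT8 and the liver marker ALB were at 0 in both flasks, while SNAI2, which mesenchymal cells also express, was at 7.86 and 6.94 CPM. FN1, CD44, EPCAM and KRT18 had at most 19 UMIs in a flask.

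MYC and MYCN are basic helix-loop-helix leucine zipper proteins that bind DNA as dimers with MAX, preferably at the E-box, and they drive genes of ribosome production, nucleotide supply and polyamine synthesis. MAX also pairs with MXD1, MXD3, MXD4, MXI1, MNT and MGA, which as a rule repress the same sites. ODC1 (ornithine decarboxylase, the first enzyme of polyamine synthesis) is a textbook MYC target. NPM1 (nucleophosmin) and NCL (nucleolin) are abundant nucleolar proteins that act in ribosome assembly and rRNA processing. FBL (fibrillarin), NOP56 and NOP58 form the core of the box C/D particles that methylate rRNA, and DKC1 (dyskerin) is the pseudouridine synthase of the box H/ACA particles and a part of telomerase. MYCN is the family member that is amplified in a large class of aggressive neuroblastomas, and lines without that amplification commonly rely on MYC.

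By the GENCODE annotation of GRCh38, MYC lies on chromosome 8, and MYCN on the plus strand of chromosome 2 from 15940550 to 15947007. MAX is on chromosome 14 (65006174 to 65102695, minus strand). ODC1, NCL and NOP58 share chromosome 2 with MYCN, at 10439968 to 10448327 (minus), 231453531 to 231483641 (minus) and 202265736 to 202303661 (plus). NPM1 is on chromosome 5 (171387116 to 171411810, plus), FBL on chromosome 19 (39834458 to 39846379, minus), NOP56 on chromosome 20 (2652593 to 2658393, plus) and DKC1 on chromosome X (154762742 to 154777689, plus).

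The E-box sequence that MYC and MAX prefer, CACGTG, reads the same on both strands. It was searched in the RefSeq windows of 250 bases before and 50 bases after each annotated start (GRCh38.p14). Of 35116 such windows of all genes, 7.26% held it. Of the 8 genes described here that have a window, 2 held it, and MYC and NOP58 had none to search. ODC1 had it in 1 of its 2 windows, with 2 matches that begin at bases -29 and 6 relative to the start of that window's transcript. In the standard (MANE Select) transcript, which starts upstream of this, the stretch lies in the first intron. FBL had 1 match, at base 7, in a stretch that overlaps its first exon. Both stretches are shown with the E-boxes in capitals, since they are the only matches among the 8 genes searched.

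ODC1, chr2:10447990-10448053, minus strand: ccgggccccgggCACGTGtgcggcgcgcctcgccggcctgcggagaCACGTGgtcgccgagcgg
FBL, chr19:39846356-39846385, minus strand: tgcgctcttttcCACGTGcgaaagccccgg

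The windows of MYCN, MAX, NPM1, NCL, NOP56 and DKC1 held no such run of letters, which says nothing of binding elsewhere. In a list of 50 further genes of ribosome biogenesis, 20 of the 41 genes with a window (48.8%) held at least 1 match, against 8.77% of all genes with a window. In a list of 10 genes of the MAX network the count was 3 of 10, and in a list of 9 genes of polyamine metabolism it was 1 of 6. A match describes the letters only.

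MYC was the family member that SY5Y cells expressed at a measurable level, and MYCN was close to the limit of detection. In SplitA, MYC had 71 UMIs or 12.1 CPM (95% interval 9.47 to 15.3), and in SplitB 115 UMIs or 14.3 CPM (11.8 to 17.1). MYCN had 9 UMIs or 1.54 CPM (0.703 to 2.92) in SplitA and 21 UMIs or 2.60 CPM (1.61 to 3.98) in SplitB. The intervals of MYC and MYCN did not overlap in either flask. Levels are given with exact Poisson intervals and shares with Clopper-Pearson binomial intervals, which cover counting error only.

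The ratio of MYC to MYCN UMIs was 7.89 (3.93 to 18.0) in SplitA and 5.48 (3.42 to 9.18) in SplitB. The log2 ratio of MYCN to MYC was -2.72 ± 0.37 (mean ± SD, n = 2 flasks), with flask values of -2.98 and -2.45. Per kilobase of the longest annotated transcript the mean was -2.21, although a 3' library counts each molecule at its end and not along its length. Thinning every cell to 2000 UMIs gave -3.31, from values of -2.38 in SplitA and -4.25 in SplitB that rest on very few MYCN molecules. MYC was higher than MYCN in both flasks under these 3 settings.

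At least 1 MYC UMI was found in 65 cells of SplitA (7.23%, interval 5.62 to 9.12%) and in 96 cells of SplitB (8.03%, 6.56 to 9.72%). For MYCN these were 9 cells (1.00%, 0.459 to 1.89%) and 20 cells (1.67%, 1.03 to 2.57%). No cell held more than 3 MYC or 2 MYCN UMIs. Thinned to 2000 UMIs per cell, which left out 1 cell of SplitA and 2 of SplitB, the MYC shares were 2.78% and 2.93% and the MYCN shares 0.557% and 0.168%. Because the library holds a single cell line, it has no cell type without these genes in which free RNA could be measured, so a share near 1% cannot be told apart from background. Both genes were seen together in 0 cells of SplitA and 4 cells of SplitB, where the product of the shares gives 0.651 and 1.61 cells. These counts are too small to describe co-expression.

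Other transcripts of the family were as rare as MYCN. MYCL had 11 and 13 UMIs in SplitA and SplitB, MYCNOS, the antisense transcript at the MYCN locus, had 10 and 12, and MYCNUT had 0 in both flasks, where a count of 0 allows up to 3. If the counting did not use strand, UMIs of MYCN and MYCNOS could not be told apart where the genes overlap.

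**Figure D1:**
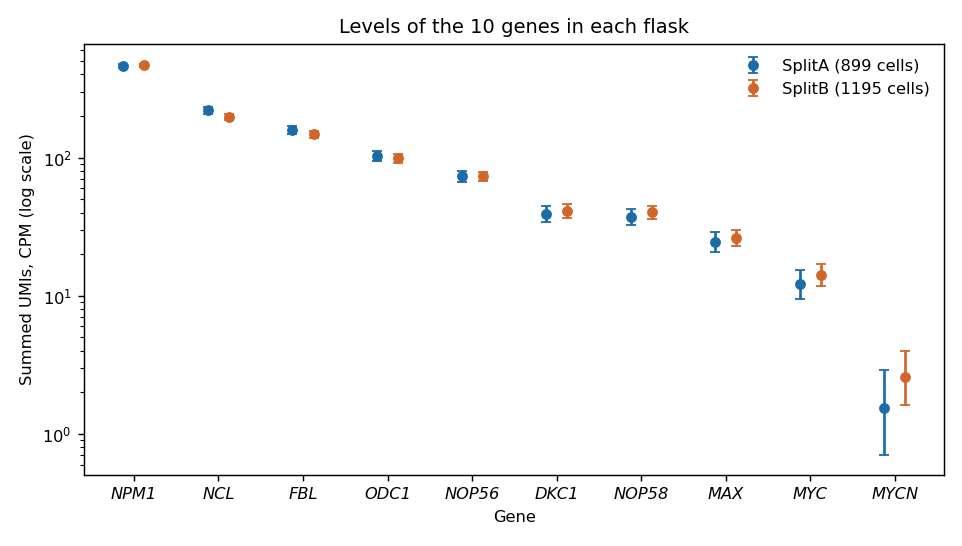
Summed UMIs (CPM, log axis) of the 10 genes in SplitA (blue, 899 cells) and SplitB (orange, 1195 cells), with points for the flask values and bars for the 95% exact Poisson interval. The levels fall from 462 CPM for NPM1 to 2.07 CPM for MYCN (means of both flasks), and the flasks differ by less than 1.5-fold for every gene but MYCN, whose intervals overlap.

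The partner MAX exceeded MYC in both flasks, with 24.4 CPM (20.6 to 28.8) in SplitA and 26.2 CPM (22.8 to 29.9) in SplitB. ODC1 was at 103 and 98.6 CPM and was detected in 42.05% and 44.02% of cells. Among the nucleolar genes NPM1 was the most abundant, at 460.3 and 464 CPM, and at least 1 UMI was found in 90.0% and 90.3% of cells. NCL followed with 219.6 and 198 CPM and FBL with 158 and 148 CPM. The other 3 were lower, with NOP56 at 73.1 and 73.0 CPM, DKC1 at 39.0 and 41.2 CPM and NOP58 at 37.1 and 40.3 CPM. In this order by CPM, DKC1 and NOP58 were the only neighbours whose intervals overlapped.

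Divided by the length of the longest annotated transcript, which a library of transcript ends may not need, the order from the highest was NPM1 (128 ± 0.69 CPM per kb, mean ± SD of 2 flasks), FBL (109 ± 5.3), NCL (49.2 ± 3.7), ODC1 (38.2 ± 1.2), NOP56 (24.5 ± 0.026), NOP58 (19.4 ± 1.1), MAX (8.02 ± 0.39), DKC1 (7.84 ± 0.30), MYC (3.55 ± 0.40) and MYCN (0.792 ± 0.29). On this scale FBL stood above NCL, and DKC1 below NOP58 and MAX, whereas by CPM alone the order of both was the opposite. The levels of MAX and DKC1 on this scale differed by less than their spread. The level of NPM1 is uncertain, since the annotation holds 49 loci named as its pseudogenes, against 3 for NOP56, 2 for NCL and 0 for the others, and reads that fit several loci may not be counted.

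The levels of the members were also compared between the flasks. With 1 flask against 1 flask there is no test, and 1.5-fold was set as the size limit for genes with at least 50 UMIs. Over all genes, 312 of 10516 (2.97%) passed it. Of the 9 members with enough UMIs, 0 did, which says little beside so small a share. SplitB relative to SplitA ranged from 0.900-fold for NCL to 1.18-fold for MYC, and MYCN, with too few UMIs to be counted, was at 1.69-fold. The intervals of NCL did not overlap between the flasks (207.7 to 231.9 CPM in SplitA and 188.0 to 207.6 in SplitB).

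Cells were next assigned to phases with the cell cycle genes used in the study, none of which is a member here. This gave 369 G1, 276 S and 254 G2M cells in SplitA, and 505 G1, 348 S and 342 G2M cells in SplitB. The classes are ranges of 2 scores and not separate types, with 6.45% and 6.86% of cells within 0.02 of the limit between G1 and the other classes. Cells near the limit between S and G2M were not counted. Thinned to 2000 UMIs, 84.2% and 82.8% of cells kept their phase. Phases were called again on thinned cells, so a result in thinned cells differs in depth and in the cells of each class. G2M cells held more RNA, with medians of 7078 and 6969 UMIs against 5830 and 6130 in G1, and the mitochondrial share of UMIs was 8.86% to 9.83% in all classes. UMIs were summed per flask and phase and tested with edgeR's quasi-likelihood test, with the flask as a block and p-values adjusted over all genes by Benjamini-Hochberg. The standard errors of this test were close to counting error (median ratio 1.02 over genes), so its p-values measure little more than the counting error and the spread between 2 flasks of 1 culture.

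MYC was highest in G1. In SplitA its level was 16.4 CPM in G1, 10.8 in S and 8.07 in G2M, and in SplitB 19.6, 8.02 and 12.7 CPM. Both flasks were thus highest in G1, while S and G2M changed places between the flasks. The G1 interval overlapped those of S and G2M in SplitA and that of G2M in SplitB, and lay apart only from S in SplitB. The log2 fold change was -1.07 ± 0.27 (SE) in S against G1 (adjusted p = 0.0019) and -0.89 ± 0.25 in G2M against G1 (adjusted p = 0.0044). The share of cells with a MYC UMI followed, at 9.76% and 10.3% in G1, 5.80% and 4.60% in S, and 5.12% and 8.19% in G2M. These calls rest on 104 UMIs in G1, 36 in S and 46 in G2M. DESeq2 gave log2 fold changes of -1.04 and -0.93 but adjusted p-values of 0.32 and 0.31, and with cells thinned to 2000 UMIs they were 0.17 and 0.20.

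MYCN did not pass the filter on low counts in any phase comparison. Its levels were 1.29, 1.20 and 2.15 CPM in G1, S and G2M of SplitA, from 3, 2 and 4 UMIs, and 2.07, 4.01 and 2.04 CPM in SplitB, from 7, 9 and 5 UMIs. All these intervals overlapped. MYC exceeded MYCN in every phase of each flask, by 2.00-fold (0.853 to 5.05) in S cells of SplitB and by 3.75-fold or more in the other classes. The interval included 1 only in S cells of SplitB.

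ODC1 was higher in S and G2M than in G1. SplitA had 69.7, 102 and 145 CPM and SplitB 72.3, 114 and 121 CPM, so that G1 was lowest in both flasks with no overlap of intervals. The log2 fold change was 0.52 ± 0.11 in S (adjusted p = 0.000107) and 0.76 ± 0.10 in G2M (adjusted p = 3.23e-09). The call in S was lost with DESeq2 (0.071) and with thinned cells (0.69), and that in G2M was kept by both.

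Among the nucleolar genes, NOP56 and NOP58 rose in S and G2M and NPM1 fell. NOP56 went from 48.2 CPM in G1 to 88.0 in S and 90.9 in G2M in SplitA, and from 50.1 to 86.0 and 92.7 in SplitB. Its log2 fold change was 0.73 ± 0.12 in S and 0.78 ± 0.12 in G2M (adjusted p = 1.63e-06 and 9.07e-08), and DESeq2 and the thinned cells kept both calls. NOP58 went from 21.1 to 50.3 and 45.2 CPM in SplitA and from 29.9 to 54.4 and 41.7 in SplitB, with log2 fold changes of 0.91 ± 0.16 and 0.60 ± 0.16 (adjusted p = 4.43e-06 and 0.0027). NOP58, unlike NOP56, had its highest value in S in both flasks, and that difference between S and G2M was not tested. Thinned cells did not keep its call in S (0.054).

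DKC1 stood at 31.0, 35.3 and 52.2 CPM in G1, S and G2M of SplitA and at 29.9, 43.7 and 54.3 CPM in SplitB. It rose in G2M, by a log2 fold change of 0.69 ± 0.15 (adjusted p = 0.000115). In S the difference was 0.31 ± 0.16 and did not pass (0.19). DESeq2 (0.12 for DKC1, 0.20 for NOP58) and thinned cells (0.054 and 0.33) both lost the G2M calls of DKC1 and NOP58. The log2 fold changes there were 0.67 and 0.72 for DKC1, and 0.62 and 0.41 for NOP58.

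NCL had its highest level in S, with 192, 263 and 215 CPM in G1, S and G2M of SplitA and 164, 234 and 210.4 CPM in SplitB. It rose in S by 0.40 ± 0.072 on the log2 scale (adjusted p = 8.66e-06), a call that DESeq2 kept (0.030) and thinned cells did not (0.11). The difference of 0.15 ± 0.073 in G2M did not pass (0.11). FBL, the catalytic subunit of the particle that NOP56 and NOP58 also belong to, was at 142, 181 and 158 CPM in SplitA and at 142, 157 and 148 CPM in SplitB. Its differences of 0.14 ± 0.082 and -0.02 ± 0.082 did not pass (0.24 and 0.86). MAX, at 27.5, 28.7 and 16.7 CPM in SplitA and 27.0, 25.4 and 25.7 CPM in SplitB, did not pass either (adjusted p = 0.76 and 0.077).

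NPM1 was lower in S and G2M than in G1 in both flasks. SplitA had 522, 492 and 355 CPM and SplitB 532, 461 and 373 CPM in G1, S and G2M, and the intervals of G2M lay below those of both other phases. The log2 fold change was -0.65 ± 0.051 in G2M (adjusted p = 3.14e-18), which DESeq2 and the thinned cells kept. In S it was -0.24 ± 0.050 (adjusted p = 0.000109), which neither kept (0.055 and 0.65), and in SplitA alone the S value was -0.08 without normalization factors.

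**Figure D2:**
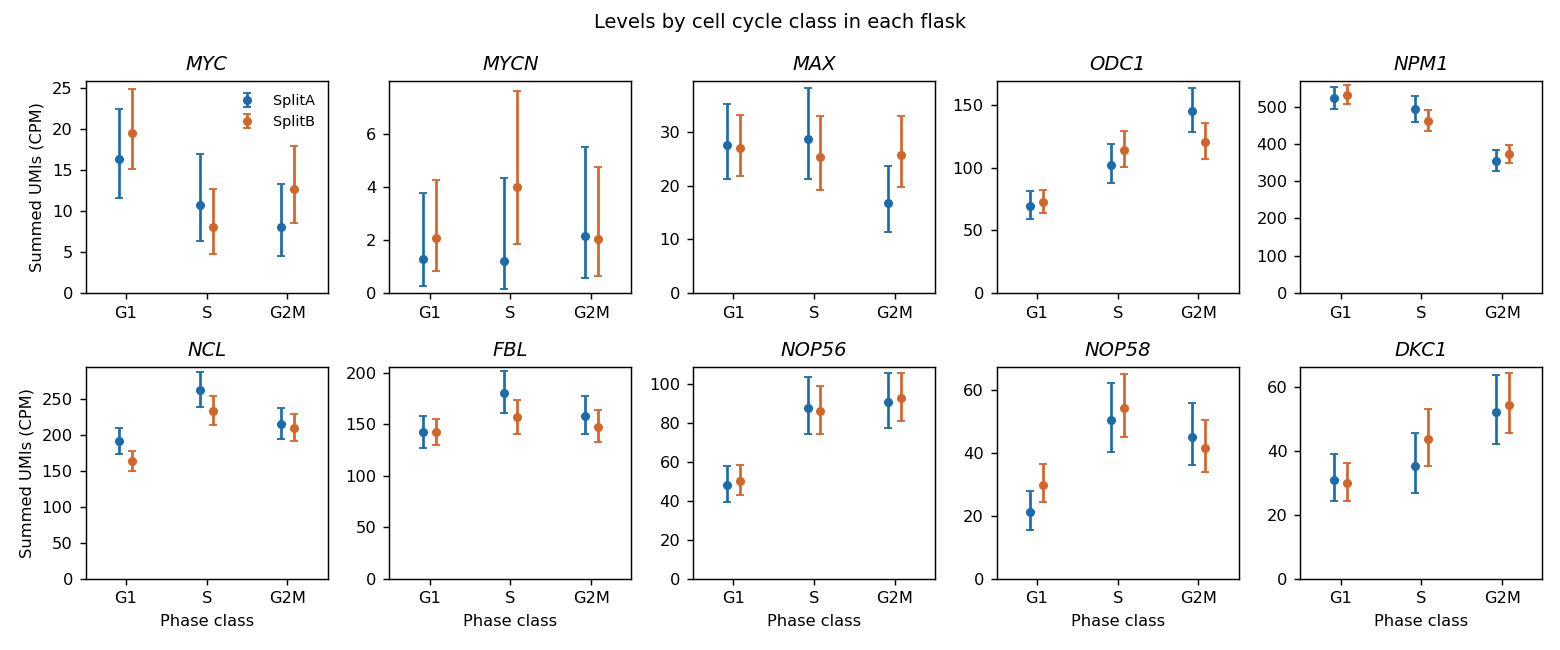
Summed UMIs (CPM, linear axis from 0) of each gene in G1, S and G2M cells of SplitA (blue) and SplitB (orange), with points for the flask values and bars for the 95% exact Poisson interval. The points of MYC and NPM1 are highest in G1 in both flasks, and those of ODC1, NCL, FBL, NOP56, NOP58 and DKC1 are lowest there. Some of these intervals overlap between phases, and MYCN shows no order beyond its intervals.

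In all, 4 of the 9 members tested were higher in S than in G1 and 2 were lower, against 10.5% of all 10521 genes tested that were higher and 9.42% that were lower. In G2M the counts were again 4 higher and 2 lower, against 15.2% and 15.1% of all genes. The members and the lists below were chosen with earlier results of these data known. Their counts beside the shares of all genes are thus a description and do not measure an excess. DESeq2 called 6.42% of all genes in S and 10.1% in G2M, and among the members 3 in each, NCL, NOP56 and NOP58 in S, and ODC1, NOP56 and NPM1 in G2M. The 6 calls of each comparison had the same direction under every alternative. Scaling by the totals in place of TMM factors moved the median log2 fold change of all genes from 0.03 to 0.15 in G2M and from 0.00 to 0.09 in S. It also moved the split of all calls from 1109 higher and 991 lower to 1455 and 671 in S, and from 1594 and 1589 to 2212 and 1075 in G2M. The members' calls remained, with NCL added in G2M at 0.27 and FBL in S at 0.23 on the log2 scale.

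The MAX network held the largest phase differences of the 3 lists. Of its 10 genes 8 were tested, and in S 1 rose and 2 fell (10.5% and 9.42% of all genes tested), while in G2M 1 rose and 3 fell (15.2% and 15.1% of all genes). MXD3, a MAX partner that is known as an S-phase member of the MXD group, went from 3.87 CPM in G1 to 20.4 in S and 60.3 in G2M in SplitA, and from 7.41 to 30.3 and 63.7 in SplitB. Its log2 fold changes of 2.03 ± 0.27 and 3.26 ± 0.21 were called by both tools. MXD4, a further repressor of that group, moved the other way, from 125 to 40.7 and 45.7 CPM in SplitA and from 117 to 54.4 and 46.2 in SplitB, with -1.40 ± 0.12 and -1.51 ± 0.12, also called by both tools.

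MXI1 fell by 0.51 ± 0.15 in S and by 0.59 ± 0.14 in G2M on the log2 scale, and MLX, which pairs with other partners than MYC, fell by 0.66 ± 0.18 in G2M. DESeq2 did not call these (adjusted p = 0.46, 0.19 and 0.20). In SplitA MXI1 was at 48.2, 49.1 and 43.0 CPM, so that its lower level in S was seen in SplitB only (64.9, 38.8 and 40.9 CPM). The median log2 fold change over the 8 genes was -0.05 in S and 0.02 in G2M, beside 0.00 and 0.03 over all genes.

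**Figure D3:**
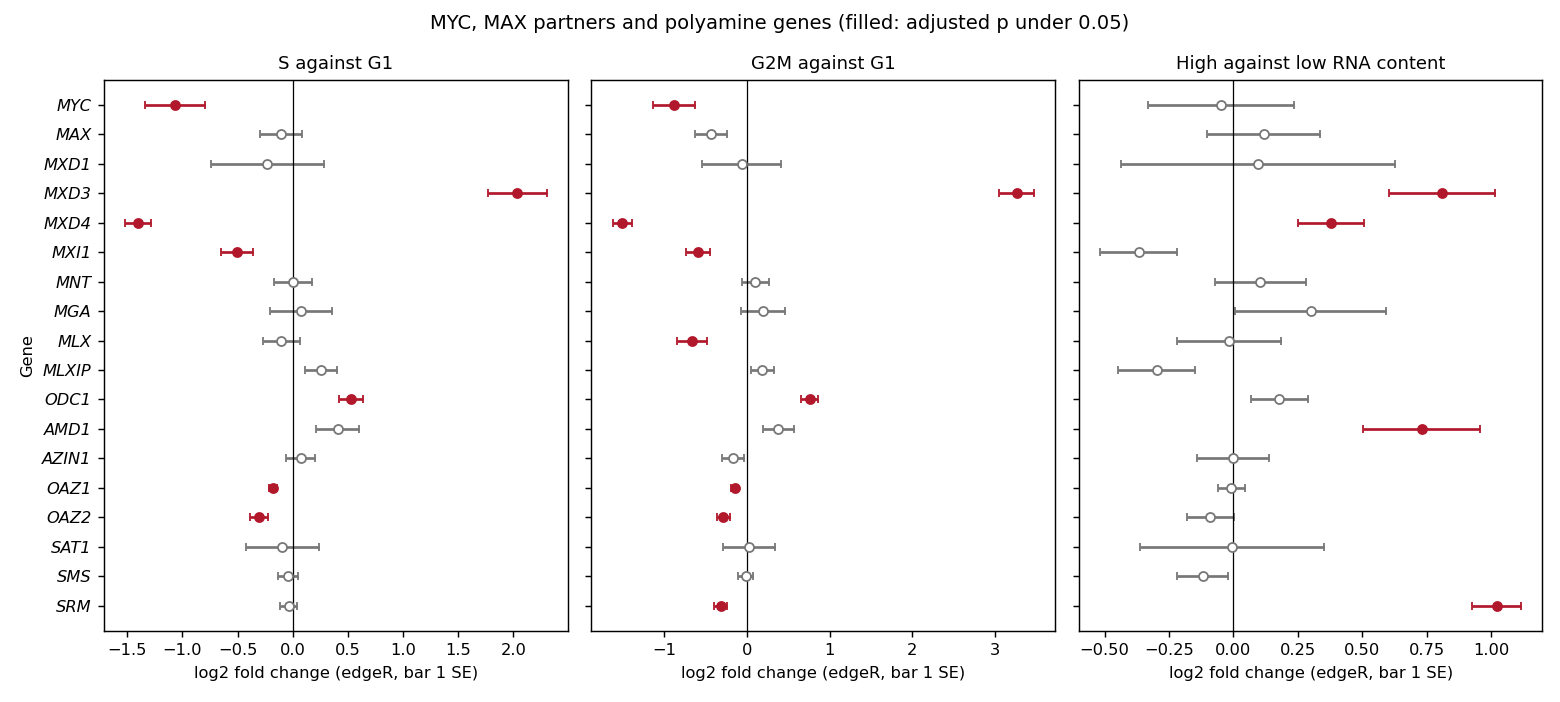
Log2 fold changes (edgeR, linear axis, bars 1 SE) of MYC, MAX, ODC1 and the tested genes of the MAX network and polyamine lists in S against G1, G2M against G1 and high against low RNA content, with red filled points for an adjusted p under 0.05 and grey open points otherwise. MXD3 lies far to the right and MYC, MXD4 and MXI1 to the left of 0 in both phase panels, and the axes of the 3 panels differ in range.

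None of the polyamine genes other than ODC1 was called higher. Of 9 listed genes 7 were tested, and 0 rose and 2 fell in S, while 0 rose and 3 fell in G2M, beside the same shares over all genes. OAZ1 and OAZ2 encode antizymes, which bind ornithine decarboxylase and send it to the proteasome. OAZ1 fell by 0.18 ± 0.040 in S and by 0.15 ± 0.039 in G2M on the log2 scale, and OAZ2 fell by 0.31 ± 0.080 and 0.29 ± 0.077. SRM (spermidine synthase) fell by 0.32 ± 0.079 in G2M. None of these falls was called by DESeq2, and OAZ1 was higher in G2M than in G1 of SplitA by CPM (903 against 876). The list's median was -0.04 in S and -0.15 in G2M.

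In the ribosome biogenesis list, all 50 genes were tested. In S 7 rose and 1 fell (NOP53, -0.32 ± 0.052, singled out after its value was seen), and in G2M 8 rose and 8 fell, with medians of 0.17 and 0.07 (0.00 and 0.03 over all genes). The G2M counts of 8 in 50 are close to the 15.2% and 15.1% of all genes, and the 7 in 50 that rose in S stand beside 10.5%. The largest changes in S were those of NOP14 (1.13 ± 0.36), a component of the small-subunit processome, TCOF1 (treacle, 0.89 ± 0.16), which acts in rRNA gene transcription, and RRP1B (0.78 ± 0.20). In G2M they were RRP1B (0.95 ± 0.19), the RNA acetyltransferase gene NAT10 (0.89 ± 0.34) and POLR1A, the largest subunit of RNA polymerase I (0.72 ± 0.28). DESeq2 called 2 higher and 1 lower in S and 2 higher and 2 lower in G2M. Of the genes named, it kept TCOF1 and NOP53 in S and RRP1B in G2M.

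By plain correlation, co-expression of the 6 nucleolar genes across cells was weak in these counts. Over their 15 pairs, the median Pearson's r of log-normalized values was 0.069 in SplitA and 0.041 in SplitB, and the median Spearman's rho was 0.056 and 0.023. All points are cells of 1 library that share its depth range, and counting noise lowers such values. Corrected for counting noise, the median was 0.47 in SplitA and 0.18 in SplitB, or 0.33 ± 0.20 (SD, n = 2 flasks). In G1 cells alone it was 0.65 and 0.27, and with cells thinned to 2000 UMIs 0.21 in both flasks. The corrected median was above 0 in both flasks in each of these settings, and its size is known only loosely.

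Among these 6 genes and ODC1, the pairs with the highest plain r by the smaller flask value were NCL with NOP56 (0.11 and 0.095), ODC1 with NOP56 (0.076 and 0.13) and ODC1 with NCL (0.071 and 0.073). NPM1 with NOP56 was below 0 in both (-0.042 and -0.0083). A weak r in sparse counts is given here as a description only.

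Summed counts were also compared after each flask was cut into tertiles of cells by the share of UMIs on the nucleolar genes other than the one described. DKC1 went from 28.9 to 51.1 CPM in SplitA and from 32.8 to 54.6 in SplitB, and NOP58 from 26.9 to 50.1 and from 35.8 to 49.97 CPM. NCL went from 197 to 253 and from 174 to 213 CPM, and NOP56 from 66.0 to 87.1 and from 64.5 to 79.7 CPM. In SplitA the low and high intervals of DKC1, NOP58 and NCL did not overlap, and in SplitB those of DKC1 and NCL did not. NOP56, FBL (150.2 to 175 and 136 to 152 CPM) and NPM1 (464 to 495 and 448 to 471 CPM) had overlapping intervals in both flasks. NPM1 has the most UMIs in the sum that ranks cells for the other genes.

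Of the genes outside the sum, ODC1 went from 91.1 to 115 CPM in SplitA and from 85.9 to 104 in SplitB with overlapping intervals. MYC went from 11.0 to 14.7 CPM in SplitA, within its intervals, and from 10.9 (7.38 to 15.4) to 22.7 (17.1 to 29.6) CPM in SplitB. MAX was at 19.0 and 31.7 CPM in the low and high tertiles of SplitA and at 25.9 and 25.2 in SplitB. No test was made on these tertiles. For each of the 9 genes and in both flasks the high tertile had a higher mitochondrial share and a lower median of UMIs per cell than the low one. For DKC1 the mitochondrial share was 9.05% in the low and 9.94% in the high tertile of SplitA, with medians of 5989 and 5504 UMIs, and 9.01% and 10.1% in SplitB, with medians of 6749 and 5972 UMIs. Their part in the differences was not tested.

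**Figure D4:**
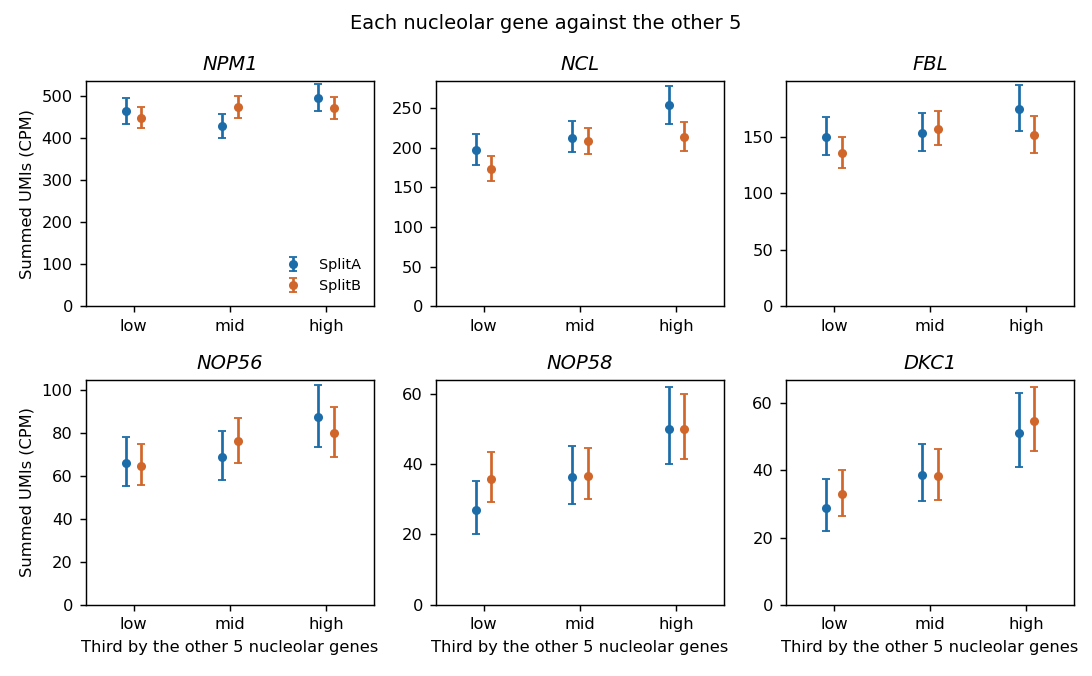
Summed UMIs (CPM, linear axis from 0) of each nucleolar gene in tertiles of cells ranked by the share of UMIs on the other 5, for SplitA (blue) and SplitB (orange), with 95% exact Poisson intervals as bars. DKC1, NOP58 and NCL are higher in the high than in the low tertile of both flasks, and NPM1 and FBL differ little.

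The spread of each gene over cells was compared with counting error. The variance was 1.76 and 1.61 times that of counting for NPM1, 1.42 and 1.40 for NCL, and 1.26 and 1.25 for ODC1. The other nucleolar genes were at 1.06 to 1.19, MYC at 1.09 and 1.27, and MAX and MYCN at 0.97 to 1.08. This ratio grows with a gene's mean count, so it does not rank genes by their spread. The coefficient of variation beyond counting was 46% and 40.5% for NPM1, 49.6% and 50.1% for NCL, and 57% and 56.2% for ODC1. It was 82.1% and 71.9% for NOP58, 75.4% and 66% for DKC1, 56.1% and 37.1% for NOP56, and 21.8% and 25.4% for FBL. For MYC it was 99.2% and 155%, from few UMIs. For MAX, and for MYCN in SplitA, no spread beyond counting was detectable at this depth.

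Among 3213 genes with at least 0.2 UMIs per cell, the 10 most alike to the summed nucleolar share by plain Pearson's r, taken as the smaller of the flask values, were HSP90AB1 (0.27 and 0.28), HSPD1, LDHB, CCT5, CKB, MT-ND2, MT-ND3, GAPDH, HSP90AA1 and EIF4A1. HSP90AB1, HSPD1, CCT5 and HSP90AA1 encode chaperones, LDHB, CKB and GAPDH enzymes of energy metabolism, and EIF4A1 a translation initiation factor. Counting noise lowers plain r most for genes with few UMIs, so this order can favour abundant transcripts. NPM1 weighs most in the summed share, with 6435 UMIs in both flasks together. NCL had 2879, FBL 2121, NOP56 1017, DKC1 560 and NOP58 542, so the likeness is not to the 6 genes equally. The rankings for MYC and MYCN did not use the limit of 0.2 UMIs per cell and covered 11870 and 11871 genes. For MYC the 3 most alike were GNL2 (0.13 and 0.14), CHGA and RAB27B. For MYCN they were MAP3K8 (0.19 and 0.097), TMEM44-AS2 and KLHDC4. MYC was detected in 65 and 96 cells and MYCN in only 9 and 20, so few cells set these values. Whether the genes named for MYC and MYCN follow them beyond chance was not tested. All r values given here are weak and were taken over 899 and 1195 cells.

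RNA content was taken as the UMIs per cell and cut into tertiles within each flask, with medians of 4109, 6065 and 8615 UMIs in SplitA and 4189, 6349 and 9024 in SplitB. UMIs per cell reflect the capture of a droplet as well as the RNA of a cell, and these cannot be told apart. The low tertile also held a larger mitochondrial share (11.3% and 11.7%, against 8.85% and 8.92% in the high tertile) and fewer G2M cells (17.3% and 20.8%, against 42.5% and 35.9%). Tertiles cut by UMIs of nuclear genes kept both of the members' calls given next, and a fit on G1 cells kept 0 of them.

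NPM1 and NCL made up a smaller share of UMIs in cells with more RNA. NPM1 was at 622, 461 and 392 CPM in the low, mid and high tertile of SplitA and at 544, 500.2 and 407 CPM in SplitB, with intervals of low and high well apart. The log2 fold change of high against low was -0.44 ± 0.061 (adjusted p = 3.44e-11). NCL was at 264, 219 and 201 CPM in SplitA and at 232, 204 and 179 CPM in SplitB, with -0.29 ± 0.081 (adjusted p = 0.0041). DESeq2 called NPM1 and not NCL (0.12). Among G1 cells alone the differences were -0.06 for NPM1 and -0.16 for NCL, and neither passed (adjusted p = 0.79 and 0.55).

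The other 7 members tested did not pass, with log2 fold changes from -0.22 ± 0.17 for NOP58 to 0.18 ± 0.11 for ODC1. For MYC the levels were 11.8, 10.9 and 13.1 CPM in SplitA and 15.6, 16.5 and 12.2 CPM in SplitB, and the difference of -0.05 ± 0.28 had an adjusted p of 0.95. MYCN had 2, 4 and 3 UMIs in the tertiles of SplitA and 6, 4 and 11 in those of SplitB and was not tested. Thus 0 members were higher and 2 lower, against 6.59% and 7.97% of all 10420 genes tested (4.66% called by DESeq2 in either direction). By totals in place of TMM factors, the calls over all genes went from 687 higher and 830 lower to 454 and 1179, and the members' calls stayed NPM1 and NCL.

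**Figure D5:**
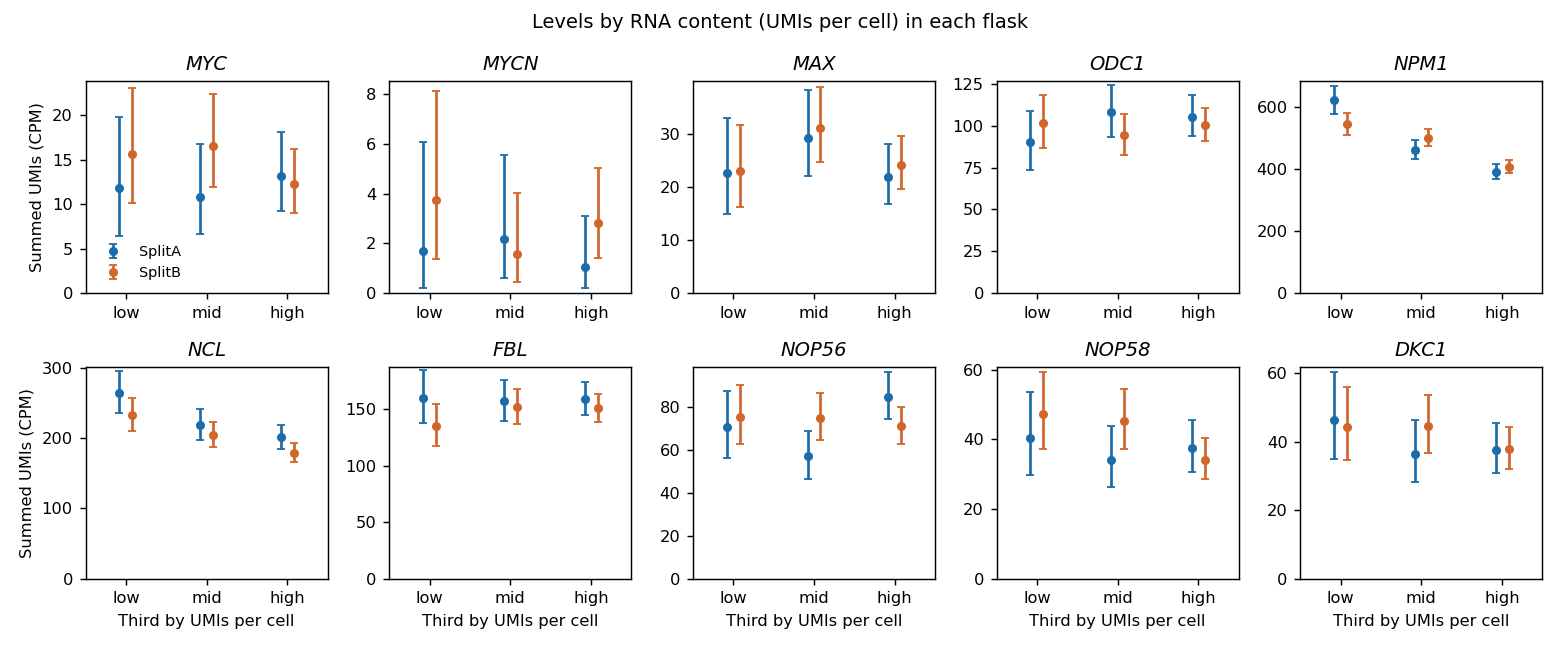
Summed UMIs (CPM, linear axis from 0) of each gene in the low, mid and high tertile of cells by UMIs per cell, in SplitA (blue) and SplitB (orange), with 95% exact Poisson intervals as bars. NPM1 and NCL are lower in the high than in the low tertile of both flasks, and for the other genes the intervals of these tertiles overlap.

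Of the lists, polyamine metabolism had 2 of 7 genes higher in cells with more RNA and 0 lower. SRM was at 92.5, 156 and 207 CPM in SplitA and at 118, 142 and 201 CPM in SplitB, a log2 fold change of 1.02 ± 0.096 (adjusted p = 3.17e-23) that DESeq2 also called. AMD1, the decarboxylase that supplies the other substrate of SRM, rose by 0.73 ± 0.23. In the MAX network MXD3 (0.81 ± 0.21) and MXD4 (0.38 ± 0.13) were higher and 0 of 8 lower. In ribosome biogenesis 4 of 49 rose and 5 fell (6.59% and 7.97% of all genes), with GNL2 (-1.26 ± 0.24) and BOP1 (-0.81 ± 0.24) at one end and RRP1B (0.70 ± 0.21) at the other. DESeq2 did not call MXD4 (0.31) and left out MXD3, AMD1, GNL2, BOP1 and RRP1B by its own filter on low counts. The high tertile also held more G2M cells than the low one. The part of the phases in the differences of these list genes was not tested.

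Cells with at least 1 MYC UMI were compared with cells without one that were matched for UMIs per cell within each flask (65 and 96 pairs). The MYC-positive cells were more often in G1 (55.4% and 54.2%, against 29.2% and 43.8% of the matched cells). Among all kept cells, 369 of 899 were in G1 in SplitA and 505 of 1195 in SplitB. The matched cells of SplitA were thus in G1 less often than their flask as a whole, which widens the contrast there. None of the 8 other members tested was called. NPM1 was at 501 against 403 CPM in SplitA and at 539.6 against 473 in SplitB, a log2 fold change of 0.28 ± 0.10 with an adjusted p of 0.20, and FBL had 74 against 54 and 126 against 111 UMIs (0.32 ± 0.16, adjusted p = 0.53). ODC1, at 57 against 51 and 80 against 82 UMIs, differed by 0.09 ± 0.18 (adjusted p = 0.95). The counts of NOP56 were lower in MYC-positive cells of both flasks (34 against 47 and 42 against 50), with -0.31 ± 0.23 (adjusted p = 0.75), and among G1 cells the value was 0.55 (0.79).

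Over all 5251 genes tested, 19 (0.362%) were called, and 465 had an unadjusted p under 0.05. DESeq2 called 0, with 10 under 0.05. The 3 genes with the smallest adjusted p, singled out after their values were seen, were the replication-dependent histone H4C3 (-0.68 ± 0.054), GNAS (-0.39 ± 0.058) and chromogranin A, CHGA (0.66 ± 0.10). Fewer of the MYC-positive cells were in S (24.6% and 16.7%, against 32.3% and 30.2% of the matched cells). A fit on G1 cells alone, with fewer cells and 3094 genes tested, called 5 genes, 1 higher and 4 lower. Its values for H4C3, GNAS and CHGA are not given here, and the part of the phases in their differences was not tested. In the fit on all matched cells the standard errors were again close to counting error (median ratio 1.03). The study lists H4C3 and CHGA among its 10 most variable genes over cells, a spread that such errors hardly include. Of the lists, 0 of 35 ribosome biogenesis genes, 0 of 6 MAX network genes and 0 of 6 polyamine genes were called. A single UMI marks a cell as positive, so many cells that express MYC are among the negative ones at this depth.

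The 9 and 20 cells with a MYCN UMI allowed still less. Of 1207 genes tested against matched cells edgeR called 0 (0.0%), with 90 at an unadjusted p under 0.05, and DESeq2 called 0, with 1 under 0.05. Only NPM1, NCL and FBL of the members were tested. NCL had 10 against 16 UMIs in SplitA and 23 against 34 in SplitB (log2 fold change -0.58 ± 0.34, adjusted p = 0.74). Differences of this size were not detectable at this depth.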

How the data were processed

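The members and gene lists were chosen with earlier results of these data known. The authors mapped reads to GRCh38 with STAR 2.7 and counted UMIs with Cell Ranger 4.0.0 (the submitters' processing notes). The deposited matrix holds raw, unnormalized UMI counts for 33538 Ensembl identifiers and 2 hashtag antibodies across 2879 barcodes. The gene annotation and the handling of strand are not given in the sources used here. Symbols came from a reference table for 33113 identifiers.

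Flasks were assigned where 1 hashtag was at least 3 times the other and the other no higher than the study's limit, and cells with at least 1000 genes were kept. No doublet caller was run beyond the hashtags, so doublets of 1 flask remain. Phases were called with Seurat 5.3.0 in R 4.3.3, with 42 of 43 S and 52 of 54 G2M genes found. Counts were summed per flask and class and fitted with edgeR 4.0.16 (TMM, filterByExpr, glmQLFit, glmQLFTest, flask as block, threshold 0.05), with DESeq2 1.42.0 as an alternative. SE is the log2 fold change over the root of F. The flask pairs the classes, since cells of a class come from the same flask. Level means are CPM of summed UMIs. The noise-corrected correlation divides the covariance of a pair of genes by the root of the product of their variances beyond counting. Only the variances had their counting part taken off. This correlation was tried on simulated data, as was edgeR's fit. The sums simulated for edgeR were independent and held no flask effect. They do not show whether its p-values hold for sums of cells from flasks of 1 culture. Corrected values of single pairs, some of them above 1, are not given.

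Named genes are the 10 members, up to 3 called genes per list with the largest change, and the genes most alike. The likeness was to be noise-corrected, but these values passed 1, and plain Pearson's r was taken after they were seen. Gene positions and transcript lengths are those of GENCODE 44. Other values came from Python 3.11.15 with numpy 2.4.6, scipy 1.17.1, pandas 2.3.3 and matplotlib 3.10.9. Intervals are at 95%. A count of 0 allows 3 by an upper 95% limit taken alone, which is lower than the upper end of the exact interval. Alternatives concerned filters, hashtag limits, scaling, depth, cycle genes, tools, the block and each flask.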

Additional observations from a re-analysis of the deposited data

Results flagged for a closer look

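Singlets with fewer than 1000 genes, which no comparison above used, held several members at a higher share of UMIs than the cells that were kept, with intervals that did not overlap in either flask. There were 280 such cells in SplitA and 410 in SplitB, with medians of 1461 and 1355 UMIs and a mitochondrial share of 31.9% and 35.3%. MYC was at 33.8 CPM in SplitA (14 UMIs) and 29.7 in SplitB (17 UMIs), against 12.1 and 14.3 in kept cells. NOP58 was at 128 and 96.2 CPM against 37.1 and 40.3, NOP56 at 152 and 133 against 73.1 and 73.0, and DKC1 at 94.1 and 85.7 against 39.0 and 41.2. NPM1 was at 697 and 659 CPM against 460.3 and 464, and NCL at 297 and 271 against 219.6 and 198. FBL was at 94.1 and 85.7 CPM, below the 158 and 148 of kept cells, and ODC1 was at 94.1 and 108 against 103 and 98.6. MAX was at 12.1 and 19.2 CPM (5 and 11 UMIs) against 24.4 and 26.2, with overlapping intervals. The totals behind these CPM include mitochondrial UMIs. The part of the mitochondrial share in these differences was not tested.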

How the results depend on the processing

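DESeq2 called 675 genes in S against G1, 1060 in G2M against G1 and 486 in high against low RNA content, where edgeR called 2100, 3183 and 1517. Cells thinned to 2000 UMIs gave 832 and 1189 calls in S and G2M, with 6680 genes left to test. G1 cells alone gave 476 calls for RNA content, with 7199 genes tested. For MYC-positive cells the 19 calls became 5 without the replicate block, 0 with DESeq2, 0 without the low-count filter, 30 without mitochondrial genes and 5 in G1 cells, and for MYCN-positive cells the 0 calls became 1 in G1 cells. The cause was not tested where fewer genes or cells do not show it. Without the block, where cells of a flask are no longer paired, the calls were 2076, 3161 and 1450 for S, G2M and RNA content and 0 for MYCN, and no call of a member changed.

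Of the members' 6 calls in S, DESeq2 kept 3 and thinned cells 1, and of the 6 in G2M each kept 3. Of the 2 for RNA content, DESeq2 kept 1 and G1 cells 0. Thinned cells added FBL in S at 0.38. The log2 ratio of MYCN to MYC was -2.21 per kb and -3.31 in thinned cells, and -2.45 and -2.98 without SplitA and without SplitB. The median nucleolar correlation was 0.055 as Pearson's r and 0.040 as Spearman's rho, against 0.33 when corrected, and 0.18 and 0.47 without each flask. Directions turned only for differences that had not passed the test. For RNA content, MYC was at 0.17 and ODC1 at -0.083 in G1 cells, and MYC at 0.0033 by nuclear UMIs. For MYC-positive cells, NCL was at -0.0053 with DESeq2, -0.0018 with its size factors and -0.000197 with the study's quality limits, and NOP56 at 0.55 in G1 cells. FBL in G2M was at 0.096 by totals, an alternative added after the data were seen. Leaving out a flask leaves 1 flask and no test, so only values per flask were computed. The depth limits MYC and MYCN most, with 186 and 30 UMIs in all.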
